A study of Homo sapiens with 4 samples.

Results

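The MYC network is a family of transcription factors that compete for the same partner and the same DNA element. Its messenger RNAs were examined in cells labelled as CFL1 knockout and in control cells. The genes were chosen by name: MYC, its paralogs MYCN and MYCL, the shared partner MAX, the antagonists MXD1, MXD3, MXD4, MXI1 and MNT, and the MAX-like factor MLX. All 10 were present among the 59885 genes of the authors' deposited table. RNA sequencing of total RNA compared 2 libraries of CFL1 knockout cells (genotype label KO CFL1) with 2 control libraries (genotype labels control1 and control2). All 4 carry the label PANC-1, which is a cell line from a human ductal adenocarcinoma of the pancreas. CFL1 encodes cofilin-1, which severs actin filaments, and the title of the series links it to methylated super-enhancer RNA and to oncogene transcription. The guide, the vector, the nature of the control and whether the knockouts are clones or pools are not given in the sources used here.

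As background, MYC proteins bind DNA only as dimers with MAX, through a basic helix-loop-helix leucine zipper, and activate genes that carry the E-box CACGTG. The MXD proteins, MXI1 and MNT also pair with MAX, bind the same E-box and recruit SIN3 corepressors, so that their balance with MYC sets the output of shared targets. MLX pairs with MXD1, MXD4 and MNT and with the glucose-responsive factors MLXIP and MLXIPL. In pancreatic ductal adenocarcinoma MYC is known to drive growth metabolism and ribosome production.

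Promoter windows of RefSeq (GRCh38.p14, 250 bases before to 50 after a start) were matched by symbol for 9 of the 10 members, all but MYC, in 12 windows. They were searched for the E-box CACGTG, which reads the same on both strands, because it is the element that the members themselves bind. It was found once each in MLX, MNT and MXD4. Of all 35116 windows 7.26% hold it, and of the 10572 matched genes with an adjusted p 12.5% do in at least 1 window. The 3 sites are shown with the flanking bases of the gene's own strand, 5′ to 3′, the E-box in capitals, from the windows of GRCh38.p14 at chr17:42567038-42567067 (MLX, + strand), chr17:2401236-2401265 (MNT, - strand) and chr4:2262330-2262359 (MXD4, - strand).
MLX: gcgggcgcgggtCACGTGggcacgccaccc
MNT: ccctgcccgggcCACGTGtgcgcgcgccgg
MXD4: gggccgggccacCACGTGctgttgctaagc
Counted from the start, the E-box begins at position -50 in MLX, -193 in MNT and -238 in MXD4. A match of letters is no evidence of binding, and binding was not measured in these files.

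**Figure D1:**
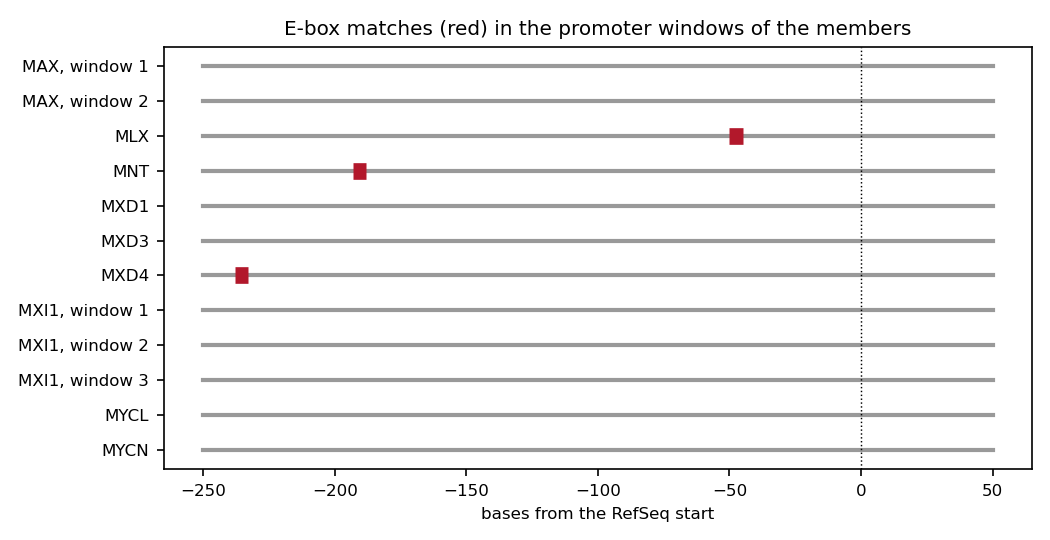
Positions of the E-box (red) in the RefSeq promoter windows of 9 members, in bases from the start (x axis), with 1 line per window. MLX, MNT and MXD4 have 1 match each, at positions -50, -193 and -238.

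Values per library were recovered as whole reads from the deposited base means, each an average of the size-factor-scaled counts of the 4 libraries. The libraries held between 12297090 and 14578175 recovered reads. They are called control A, control B, knockout A and knockout B, letters that do not map to the numbers in the labels. CFL1 itself had 6276 (control A) and 13761 (control B) normalized counts against 2285 (knockout A) and 2487 (knockout B), and the authors' deposited table gives it -2.07 (DESeq2, adjusted p = 0.00168). The knockout mean of CFL1 differed from control A by -1.40 and from control B by -2.53 in log2 units. Cofilin-1 protein was not measured here. Control B differed widely from the rest: of 17107 genes at a base mean of 10 or more, 20.9% differed more than 4-fold between the controls, against 0.748% between the knockouts and 0.865% and 0.994% between control A and knockouts A and B. Across these genes Pearson's r of log2 values was 0.71 between the controls and 0.70 and 0.71 between control B and the knockouts, but 0.98 between control A and each knockout. Genes are not independent replicates. Whether control B holds the same cells as the other libraries, and which of the 4 hold the labelled line PANC-1, was not tested. Single genes also separated control B. CDKN2B, a cell cycle inhibitor gene chosen after its values were seen, had 0 counts there, 437 in control A and 296 and 360 in the knockouts. KRT19 had 2481 normalized counts there, 1.82 in control A and 0 in both knockouts, whereas KRT7 had 108 there and between 3551 and 4000 elsewhere. Over the 5 of 7 ductal markers with recovered reads the sums were 2900 in control B and 3784 to 4285 elsewhere. KRT19 made up most of the sum in control B and KRT7 most of it elsewhere, so the sums hide unlike markers. KRT8 and KRT18 had base means of 14820 and 12890. Their log2 fold changes in the authors' deposited table were -1.41 and -0.98 (DESeq2, adjusted p = 0.117 and 0.296). EPCAM and CDH1, which define epithelial cells, had at most 16.2 normalized counts outside control B, where they had 42.5 and 164. Of 11 leukocyte, endothelial and fibroblast markers 9 had a base mean above 0, with sums of 2802 in control B and 427 to 747 elsewhere. PTPRC was at 0 in both controls and in knockout B, and LUM was at 0 in all 4 libraries, whereas the macrophage marker CD68 had 1217 in control B and at most 10.8 elsewhere. The fibroblast marker COL1A1 had 354 and 1574 in control A and control B and 687 and 556 in the knockouts. It was the highest marker of this list in each library, while the fibroblast markers COL1A2 and DCN had base means of 1.43 and 2.87. The part of these markers in the results below was not tested. Control B enters every value pooled over the controls and every fold change of the authors' deposited table, so differences of the members are also given against each control by itself. In RNA from bulk cells, fewer cells of a type and less RNA per cell cannot be told apart.

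No member of the network passed the authors' DESeq2 Wald test. An adjusted p was given for 9 members, and 0 of 9 were under 0.05 in the authors' deposited table, where 0.559% of 16629 genes were (0.138% higher and 0.421% lower in the knockouts). The lowest adjusted p of a member was 0.189, for MXD3. By an unadjusted p under 0.05, MYC, MYCL and MXD3 were marked as upregulated and MXD1 and MLX as downregulated in that table, 5 of 9 members against 12.6% of genes with an adjusted p (3.13% higher and 9.49% lower). The median log2 fold change of the 9 members was 0.48 in the authors' deposited table, and that of all genes with an adjusted p was -0.03. The members were chosen with earlier results of these data known, so these comparisons with all genes describe them and do not test them. With limma on the recovered reads, 0 of 10 members had an adjusted p under 0.05 (0.0% of 24790 genes), and 1, MXD3, had an unadjusted p under 0.05 (2.0% of genes). With voom these counts of members were 0 and 1 too, where 0.0% and 1.73% of genes passed. CFL1, the gene knocked out, was not called by these fits either, with adjusted p = 0.722 by limma and 0.769 by voom.

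In both knockouts 6 of the 9 members with a base mean of at least 10 lay above both controls, where 23.7% of 17107 genes did, and 2 lay below both, where 21.0% did. Together 8 of 9 did not overlap, against 44.7% of genes, which again describes the chosen members and does not test them. An exact permutation test of 2 against 2 libraries cannot give a two-sided p below 0.333, so no single gene can be called in this way. The median difference between the knockouts was 0.09 on the log2 scale over these members and 0.16 over all genes at a base mean of 10 or more. Between the controls it was 0.69 over the members and 0.88 over all genes. The knockouts were nearly alike at most members, and most of the spread within groups lay between the controls.

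**Figure D2:**
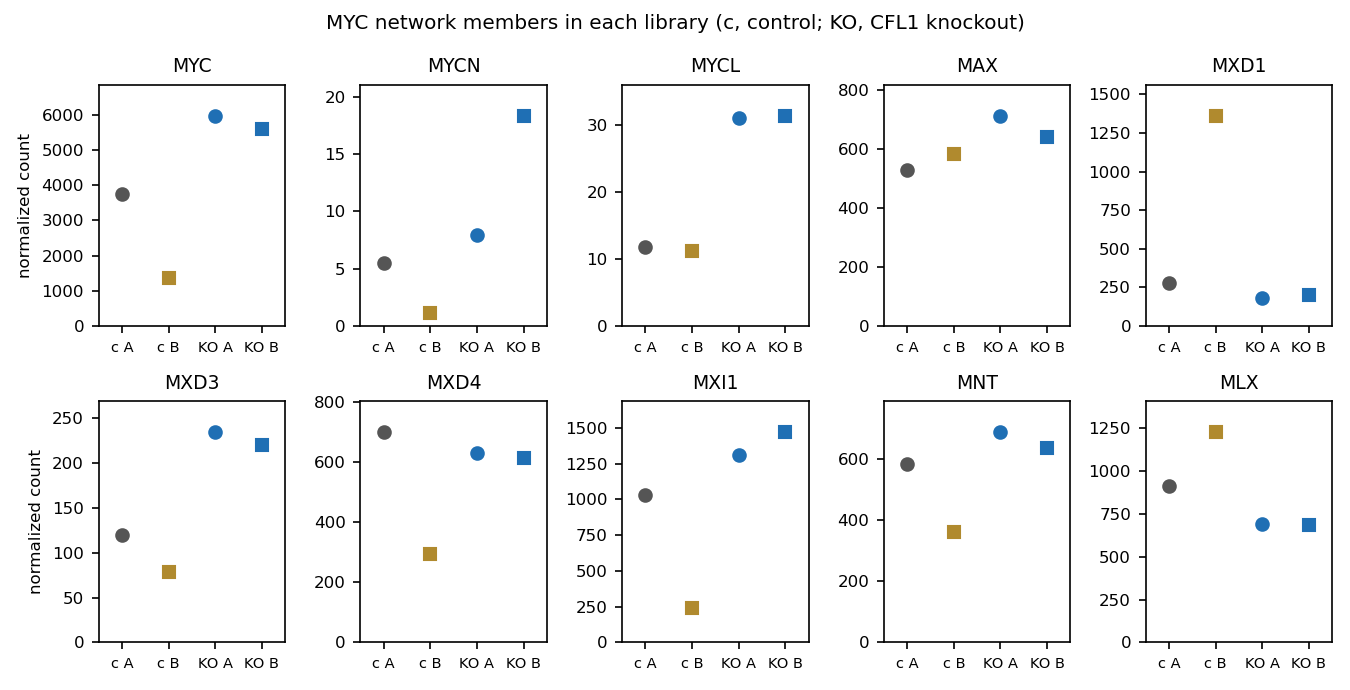
Normalized counts (y axis, linear and from 0) of each MYC network member in control A and control B (c A, c B) and knockout A and knockout B (KO A, KO B), 1 point per library. MYC lies at 5969 and 5602 in the knockouts, above 3752 and 1370 in the controls, and MXD4 is the member of the 10 in which the knockouts lie between the controls.

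MYC, the factor that gives the network its name, was the most abundant member. It had 3752 normalized counts (control A) and 1370 (control B) among the controls, and 5969 (knockout A) and 5602 (knockout B) among the knockouts. Both knockouts lay above both controls, and control B was the lowest of the 4. The authors' deposited table put the log2 fold change of MYC at 1.18 ± 0.54 (standard error), with adjusted p = 0.339 by DESeq2. In log2 units the knockout mean exceeded control A by 0.62 and control B by 2.08, while the controls differed by 1.45 and the knockouts by 0.09. MYC was thus higher in the knockouts than in either control, and the size of the difference depended on which control it was set against. On the recovered reads limma gave MYC 1.35 (adjusted p = 0.722), 0.62 (adjusted p = 0.265) without control B and 2.08 (adjusted p = 0.0251) without control A.

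The paralogs MYCL and MYCN, which take the place of MYC in some neuroendocrine and neural tumors, were close to silent. MYCL had 13 and 10 reads in control A and control B and 35 and 29 in knockout A and knockout B. As normalized counts these were 11.8 and 11.2 against 31.0 and 31.3, and the libraries of each group lay close together with no overlap between groups. The authors' deposited table put the log2 fold change of MYCL at 1.44 ± 0.68 (standard error), with adjusted p = 0.357 by DESeq2. Among the members MYCL was the one whose difference hardly depended on the control, at 1.33 against control A and 1.40 against control B. Pooled over each group, the rate of MYCL reads was 2.7 times as high in the knockouts, with an exact 95% interval of 1.65 to 4.56 that covers counting error only. MYCN had 6 reads (control A) and 1 (control B) among the controls, and 9 (knockout A) and 17 (knockout B) among the knockouts. The pooled rate of MYCN reads was 3.6 times as high in the knockouts, with an exact 95% counting interval of 1.52 to 9.83. At MYCN knockout B exceeded knockout A by 1.11 in log2 units, about as much as the knockout mean exceeded control A (1.13), while it exceeded control B by 2.74. The authors' deposited table gives MYCN a log2 fold change of 1.96 ± 1.28 (standard error) and no adjusted p. In each library MYC made up between 99.3% and 99.6% of the reads per kilobase of the 3 paralogs.

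MAX, the partner of MYC and of all 5 antagonists, varied least between the libraries. It had 528 and 583 normalized counts in control A and control B, and 712 and 641 in knockout A and knockout B. The groups did not overlap, but the gap between them was smaller than the difference between the knockouts. The authors' deposited table put the log2 fold change of MAX at 0.28 ± 0.23 (standard error), with adjusted p = 0.595 by DESeq2. The knockout mean exceeded control A by 0.36 and control B by 0.21 in log2 units.

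The antagonists did not share a direction. MXD3, which is known for expression in dividing cells, had 120.0 and 78.2 normalized counts in control A and control B and 234 and 220.0 in knockout A and knockout B. Both knockouts lay above the higher control, and the controls differed from each other by 0.61 in log2 units, more than the knockouts, which differed by 0.09. The authors' deposited table put its log2 fold change at 1.19 ± 0.42 (standard error), with adjusted p = 0.189 by DESeq2, and the knockouts differed by 0.91 from control A alone and by 1.52 from control B alone. In the GENCODE annotation exons of MXD3 overlap those of RAB24 on the same strand and of PRELID1 on the other strand. The log2 fold changes of RAB24 and PRELID1 in the authors' deposited table were 0.00 and -0.54. Whether the reads were counted by strand is not given in the sources used here.

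MXD1, the antagonist that is known to come up as cells differentiate, was low in 3 libraries and high in control B. It had 279 normalized counts (control A) and 1360 (control B) among the controls, and 180 (knockout A) and 202 (knockout B) among the knockouts. The knockouts lay below both controls, yet control A was much nearer to the knockouts than to control B. The authors' deposited table put the log2 fold change of MXD1 at -2.10 ± 0.78 (standard error), with adjusted p = 0.216 by DESeq2. Against control A the difference was -0.55, against control B -2.83, and the controls differed from each other by 2.28. Exons of MXD1 overlap those of SNRNP27 on the same strand, whose log2 fold change is -0.28 in the authors' deposited table.

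MXI1, an antagonist that responds to hypoxia, showed the reverse distribution. It had 1031 normalized counts (control A) and 244 (control B) among the controls, and 1311 (knockout A) and 1467 (knockout B) among the knockouts. The groups did not overlap, and again control A was nearer to the knockouts than to control B. The authors' deposited table put the log2 fold change of MXI1 at 1.12 ± 0.71 (standard error), with adjusted p = 0.495 by DESeq2. The knockouts exceeded control A by 0.43 and control B by 2.51.

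MNT, the most widely expressed antagonist, had 584 and 362 normalized counts in control A and control B and 687 and 635 in knockout A and knockout B. The authors' deposited table put its log2 fold change at 0.48 ± 0.36 (standard error), with adjusted p = 0.576 by DESeq2, and the knockouts differed by 0.18 from control A alone and by 0.87 from control B alone. MXD4, a widely expressed antagonist of resting cells, had 698 and 294 (controls) against 629 and 614 (knockouts), so its knockouts lay between the controls. The authors' deposited table put the log2 fold change of MXD4 at 0.32 ± 0.52 (standard error), with adjusted p = 0.787 by DESeq2. The sign of MXD4 depended on the control, at -0.17 against control A and 1.08 against control B. Exons of MNT overlap those of AC006435.1 on the other strand, for which the authors' deposited table gives 0.44.

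MLX, which links the network to the glucose-responsive factors, had fewer counts in each knockout than in either control. It had 910 and 1224 normalized counts in control A and control B and 693 and 685 in knockout A and knockout B. Between the knockouts MLX differed by 0.02 in log2 units. The authors' deposited table put the log2 fold change of MLX at -0.63 ± 0.27 (standard error), with adjusted p = 0.309 by DESeq2, and the knockouts differed by -0.40 from control A alone and by -0.83 from control B alone. The exons of MLX overlap those of PSMC3IP on the other strand. PSMC3IP had a log2 fold change of 1.30 in the authors' deposited table, with a DESeq2 adjusted p of 0.447.

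The 3 members with an E-box in their promoter window did not share a direction. MLX was lower in both knockouts, MNT was higher in both, and at MXD4 the knockouts lay between the controls.

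**Figure D3:**
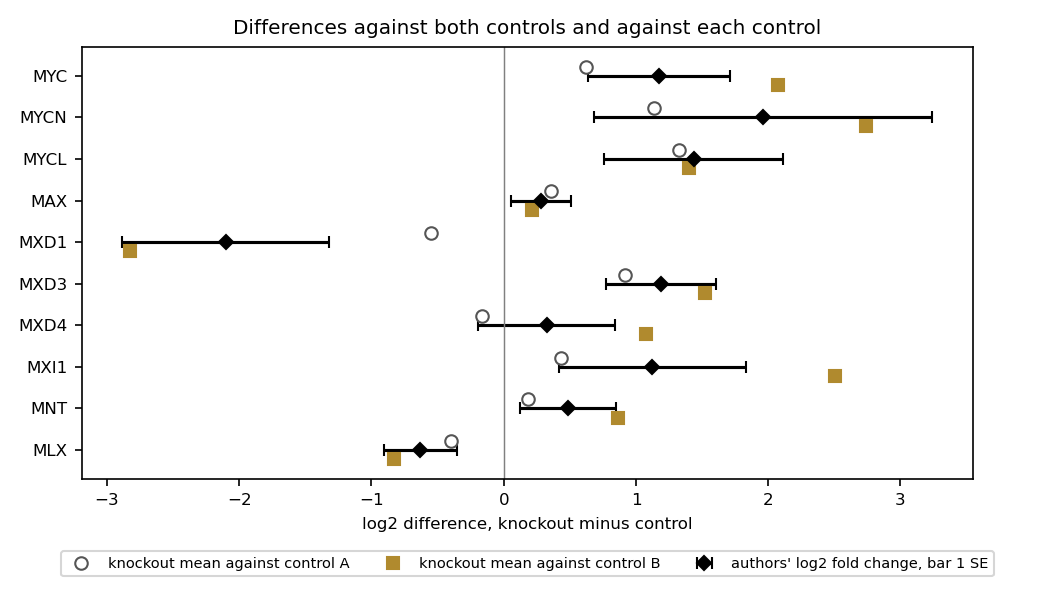
Log2 difference of knockout minus control (x axis) for each member: the log2 fold change of the authors' deposited table (diamonds, bars 1 standard error), the mean of the knockouts against control A alone (open circles) and against control B alone (squares). The squares lie farther from 0 than the circles for each member except MAX, and MXD4 has a circle below 0 and a square above it.

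Without control B, limma gave all members but MXD4 the direction of the authors' deposited table, 0 members with an adjusted p under 0.05 and 7 of 10 with an unadjusted p under 0.05, against 14.1% of genes. These 7 were MYC, MYCL, MAX, MXD1, MXD3, MXI1 and MLX, with log2 fold changes of 0.62, 1.33, 0.35, -0.55, 0.91, 0.43 and -0.40. Without control A, 7 of 10 members had a limma adjusted p under 0.05, MYC, MXD3, MXD4, MXI1 and MNT higher and MXD1 and MLX lower in the knockouts, where 33.2% of all genes did, and 8 of 10 had an unadjusted p under 0.05, where 50.1% of genes did. In both fits the lone control is assumed to vary like the knockouts.

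The genes were also compared by level, as normalized counts per kilobase of the longest transcript in GENCODE. Which transcripts were expressed was not examined, so levels and their order depend on this choice of length. MYC led with a base mean of 1764 per kilobase, and its lowest library, control B with 579, lay above the highest library of any other member, MLX in control B with 473. MLX, MXI1, MAX, MXD4, MNT, MXD1 and MXD3 followed with base means of 340, 292, 195, 132, 114, 90.4 and 71.5 per kilobase. The ranges over the 4 libraries overlapped between MLX and MXI1, between MXI1 and MAX, and between each pair of neighbours from MXD4 to MXD3, so that these neighbours are not separated. The lowest MAX library (167) lay just above the highest MXD4 library (165). MYCL and MYCN came last with 6.55 and 3.16 per kilobase, below every library of the others, and their ranges overlapped each other.

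Ratios between members within 1 library do not depend on how the libraries are scaled, though their size depends on the transcript lengths used. Per kilobase, MYC reads were 9.47 times those of MAX in control A, 3.13 times in control B, 11.2 times in knockout A and 11.7 times in knockout B. The knockouts lay above both controls, at a small distance from control A. MYC reads were 2.33 and 1.18 times the sum of the 5 antagonists in control A and control B, and 3.16 and 2.86 times in knockout A and knockout B. The ratio was again highest in the knockouts, and it was not tested. The makeup of the antagonists set control B apart from the rest. MXD1 gave 49.7% of the antagonist reads per kilobase there, against 7.33% in control A and 4.03% and 4.36% in the knockouts. In the other 3 libraries MXI1 was the largest, with 43.6%, 47.3% and 51.1%. MXD3 gave 7.72% and 7.01% (controls) against 12.8% and 11.7% (knockouts), a share in which the controls lay close together and the groups apart. The level of MXD3 itself was 52.6 and 34.3 per kilobase in control A and control B. Its near-equal shares there thus also depend on the other antagonists.

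**Figure D4:**
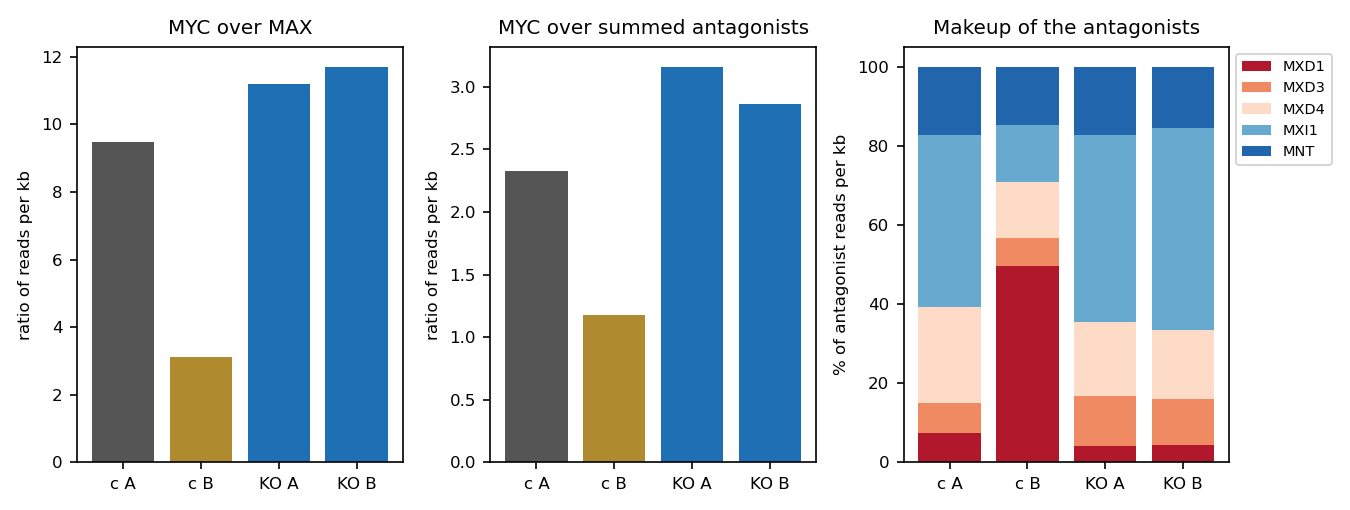
Ratios of reads per kilobase within each library for MYC over MAX (left, y axis from 0) and MYC over the sum of the 5 antagonists (middle, y axis from 0), and the percent of antagonist reads per kilobase held by each antagonist (right). The knockouts have the highest ratios, 11.2 and 11.7 and 3.16 and 2.86, and MXD1 fills 49.7% of the antagonists in control B.

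Partners and cofactors of the network were described from lists, each by its count of called genes, where 0.559% of all genes were called. Of the other zipper partners, MLXIP, MLXIPL and MGA, 0 of 3 were called. MLXIPL, the carbohydrate response factor ChREBP, had 70.9 and 7.82 normalized counts in control A and control B and 120.4 and 123 in knockout A and knockout B, with an authors' log2 fold change of 1.62 (DESeq2 adjusted p 0.518). MLXIP, its paralog MondoA, had 1799 and 2175 against 1729 and 1806. Of 14 coactivators and corepressors 0 were called and their median log2 fold change was -0.11. Among them MYCBP, a MYC-binding protein, had 603 and 653 (controls) against 418 and 456 (knockouts), and the authors' deposited table gives it -0.52 (DESeq2 adjusted p 0.308). The corepressor gene SIN3B had 1426 and 862 against 1691 and 1472. Of 10 genes that act on MYC protein turnover 0 were called, with a median of -0.05. The ubiquitin ligase gene HUWE1 and the kinase gene AURKA had the lowest unadjusted p of this list, and the authors' deposited table gives them -0.26 and -0.33 (DESeq2, adjusted p = 0.524 and 0.579).

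Genes that MYC is known to induce, mostly of ribosome production, nucleotide and polyamine synthesis, were mostly below 0 in log2 fold change. Of 38 such genes 0 were called, 10 had a log2 fold change above 0 and 28 below 0 in the authors' deposited table, and the median was -0.34 against -0.03 for all genes with an adjusted p. For the 32 whose reads were recovered, the median difference from control A was 0.01, as for all genes, and that from control B was -0.77, where all genes had 0.03. Both knockouts lay above both controls for 3 of the 32 and below both for 7, where 23.7% and 21.0% of genes did. The share below both was thus near that of all genes, and the share above both was lower. ODC1, the rate-limiting enzyme of polyamine synthesis and a classical MYC target, had 2341 and 3097 normalized counts in control A and control B and 1685 and 1692 in the knockouts. The authors' deposited table put ODC1 at -0.69 (DESeq2, adjusted p = 0.206), and the knockouts differed by -0.47 from control A alone and by -0.88 from control B alone. RRP9, a factor of ribosomal RNA processing, had 535 and 1709 (controls) against 435 and 485 (knockouts), with -1.29 in the authors' deposited table (DESeq2 adjusted p 0.367), and differences of -0.22 from control A and -1.89 from control B. SHMT2, a mitochondrial serine hydroxymethyltransferase gene chosen after its values were seen, had 3244 and 2547 (controls) against 3969 and 4075 (knockouts), with 0.47 in the authors' deposited table (DESeq2 adjusted p 0.372). At ODC1, RRP9, SRM, EIF4E, RRP12, UTP20 and IMP4 both knockouts lay below both controls, and at SHMT2, CDK4 and NOLC1 they lay above both, as at MYC. These induced genes, except ODC1 and RRP9, were named after their values were seen.

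Of 8 genes that MYC is known to repress 0 were called, where 0.559% of all genes were. Their median was 0.42 in the authors' deposited table, -0.01 against control A and 1.72 against control B. CDKN1A, the cell cycle inhibitor p21, had 2346 and 4708 normalized counts in control A and control B and 1642 and 1559 in knockout A and knockout B, with a log2 fold change of -1.14 in the authors' deposited table (DESeq2 adjusted p 0.216). Its difference was -0.55 from control A and -1.56 from control B. THBS1, the matrix protein thrombospondin-1, had 3253 and 3111 (controls) against 2239 and 2534 (knockouts), with -0.42 in that table (DESeq2 adjusted p 0.326). At THBS1 the controls lay close together and both knockouts lay below them, by -0.45 from control A and -0.38 from control B. In the list, 5 of 8 genes had a log2 fold change above 0 in the authors' deposited table, where 8058 of 16629 genes did. The knockouts lay above both controls for 3 and below both for 2, where 23.7% and 21.0% of genes did. The 3 were CDKN1B, NDRG1 and GAS1, named after their values were seen, and NDRG1 had 7450 and 924 (controls) against 8034 and 9399 (knockouts).

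Of the glucose-responsive targets of MLX dimers, 0 of 4 with an adjusted p were called, where 0.559% of all genes were. ARRDC4, an arrestin that restrains glucose uptake, had 394 and 45.8 normalized counts in control A and control B and 499 and 718 in the knockouts, with 1.47 in the authors' deposited table (DESeq2 adjusted p 0.514). Its difference was 0.62 from control A and 3.70 from control B. FASN, the fatty acid synthase gene, had -0.33 in that table (DESeq2 adjusted p 0.526). TXNIP, the best known target of MLXIP and MLX, was chosen after its values were seen. It had 910 and 34.6 (controls) against 2243 and 2765 (knockouts) as normalized counts, and the authors' deposited table gives 2.41 (DESeq2 adjusted p 0.549). At TXNIP the knockouts exceeded control A by 1.46 and control B by 6.14 in log2 units. ARRDC4 and TXNIP were thus higher in both knockouts while MLX was lower, but the list did not share this direction. The groups overlapped at ACACA, with differences of -0.06 from control A and 0.97 from control B. PKLR was lower in both knockouts, at a base mean of only 2.23.

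**Figure D5:**
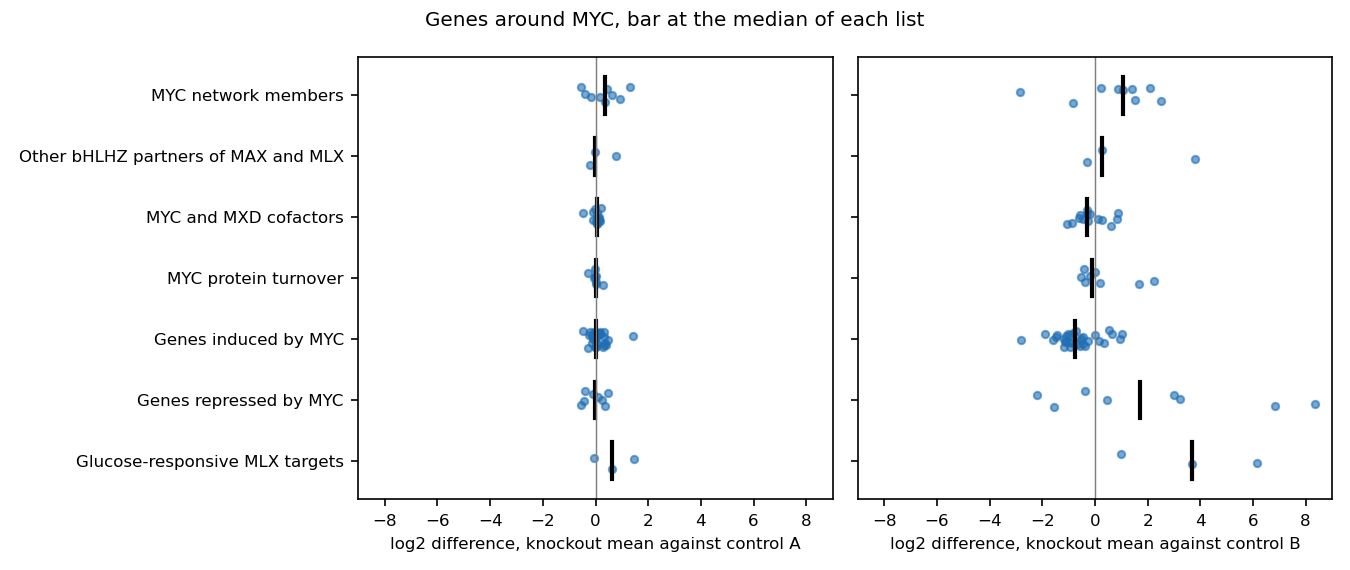
Log2 difference of the knockout mean from control A (left) and from control B (right) for members and listed genes with recovered reads and a base mean of at least 10, 1 point per gene, bar at the median of each list. Against control A the medians lie between -0.03 and 0.63, and against control B between -0.77 and 3.70.

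The genes whose course over the 4 libraries was most like that of MYC were found among 11437 others with a base mean of at least 100, by Euclidean distance between log2 values centred on each gene's mean. USE1, a protein of vesicle transport, came first with a distance of 0.064. It had 182 and 69.3 normalized counts in control A and control B and 306 and 279 in the knockouts. PGM2L1, HIST1H1E, BCAM and MPST followed with distances of 0.105, 0.122, 0.123 and 0.134. Their log2 fold changes in the authors' deposited table were 1.20, 1.13, 1.28 and 1.05, that of USE1 was 1.22, and 0 of the 5 were called by the DESeq2 adjusted p. The choice by distance fixes that their order over the libraries resembles that of MYC.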

How the data were processed

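The authors deposited a DESeq2 comparison of knockout with control cells. RSEM, STAR, cutadapt, FastQC and hg19 are named in the submitters' processing notes. Per the file headers, the deposited base mean is a signal (mean of counts over size factors), the log2 fold change and its error are log2 values, the Wald statistic is a score, and p-values are raw and Benjamini-Hochberg adjusted. That the fold changes are without shrinkage was inferred from their extreme values. Calls are the authors' adjusted p under 0.05.

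Whole reads were recovered from the 15 digits of the base mean: the 4 steps are base means of genes with 1 read, and their groups follow the sign of the authors' fold change. Reads came out for 30628 of 30662 genes with a base mean under 10000. Each member had a single solution, whose implied log2 fold change lay within 4e-06 of the deposited one. RSEM divides shared reads, so these are its rounded estimates. No label names separate cultures or a batch, so the p-values reflect only how far these libraries vary, possibly for technical reasons.

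Genes averaging 1 or more normalized counts were fitted by limma 3.58.1 (R 4.3.3) as log2(normalized count + 1), a scale that shrinks changes of low genes. The fit was tested on simulated data in which all 4 libraries varied alike. That test therefore does not cover a control that stands apart, as control B does. Alternatives were voom, upper quartile scaling, a pseudocount of 0.1, a filter at 10 and leaving out each library. Genes named by rule are the members, CFL1, the 5 genes most like MYC, and of each list up to 3 called genes per direction or, with none, the 2 of lowest p. Other listed genes and markers in the text were named outside this rule. Members and lists were chosen with earlier results of these data known. CIP2A was matched as KIAA1524. Coordinates are of GRCh38.p14, not of the files' build. Python 3.11.15, numpy 2.4.6, pandas 2.3.3, scipy 1.17.1 and matplotlib 3.10.9 were used.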

Additional observations from a re-analysis of the deposited data

How the results depend on the processing

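No member passed an adjusted p under 0.05 with no independent filtering, with base means of at least 10, at an adjusted p under 0.1 or with limma, and the same held for the other listed pathway genes. Over all genes, 93 were called, 153 at an adjusted p under 0.1 and 0 with limma on the recovered reads, which had 496 at an unadjusted p under 0.05. CFL1 itself was among the genes that limma did not call (adjusted p = 0.722). When single libraries were left out, 0 to 7 members had a limma adjusted p under 0.05, the 7 without control A. The log2 fold change of MXD4, 0.32 in the authors' deposited table, was -0.17 without control B and 1.08 without control A. Over the single members, 81 alternative values kept the direction and the side of the threshold, 7 (all without control A) kept the direction and passed it, and 1 (MXD4 without control B) changed sign. The cause was not tested. No paired analysis was possible because the recovered libraries cannot be tied to the replicate numbers of the labels. With 2 libraries a group, of which control B stands apart, the design limits what can be called, and MYCN and MYCL are also limited by few reads.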

Other observations

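Promoter windows of the listed genes differed in how often they held the E-box CACGTG. Of 32 matched genes known to be induced by MYC, 19 had it in at least 1 window (59.4%), against 12.5% of the matched genes with an adjusted p and 0 of 5 matched genes known to be repressed by MYC. Of 12 matched cofactor genes 2 had it, and of 8 matched turnover genes 2. The list of induced genes was drawn from known targets, so its share describes how the list was made.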
